A study of Mus musculus with 4 samples.

Results

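Immediate early genes were followed through a single-cell transcriptome of mouse Achilles tendon. The 10 members (Fos, Fosb, Jun, Junb, Jund, Egr1, Atf3, Ier2, Zfp36 and Nr4a1) are a named list, and their rows were taken from the count table by symbol. All 10 were found among 15746 genes, and together they held 65965 UMIs (unique molecular identifiers, each standing for 1 captured transcript molecule), or 0.574% of all UMIs. The series held 4 droplet libraries of 1 kind, made with the 10x Chromium 3′ v3 chemistry from the Achilles tendons of male C57Bl/6 mice aged 6 weeks, with no treatment, allele or agent that sets one library apart from another. Whether a library is 1 mouse or several is not in the labels. Spreads and p-values therefore measure the variation between these libraries, which may be technical.

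Immediate early genes are transcribed within minutes of a stimulus, without new protein synthesis, when kinase signalling activates factors already bound at their promoters. Fos and Jun family proteins pair through leucine zippers to form the transcription factor AP-1, and most members' messages are short-lived. Enzymatic dissociation of a tissue is known to raise the same genes, so in isolated cells they are read as a sign of stimulation in the tissue or during isolation. How these tendons were dissociated is not given in the sources used here, and both kinds of stimulation cannot be told apart in these data.

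The table held 1191 cells (580, 246, 256 and 109 in libraries 1 to 4) with library medians of 7440 to 8824 UMIs per cell, and no barcode was in more than 1 library. The deposited annotation names 13 populations, and each of 8 lists of cell type markers was highest in a population of its own label. The annotation was made from counts that include the 10 genes. Tests between populations therefore compare levels and do not ask whether the populations exist, and whether the members helped to form them was not tested. Levels are given for sums of 5 or more cells of 1 library and 1 population. A level is in UMIs per 1000000 UMIs of that sum (CPM) and is not divided by transcript length, so levels are set side by side between populations, not between genes.

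The 250 bases before the transcription start are shown for 4 members, Fos, Atf3, Junb and Jund, because Jund stood apart from the other members in some of the readouts below. RefSeq's promoter table (build GRCm38.p6) held an entry for 8 of the 10 members, all but Egr1 and Ier2. Fos is encoded at chr12:85473890-85477274 on the plus strand, Atf3 at chr1:191170296-191183333 on the minus strand, Junb at chr8:84976909-84978748 on the minus strand and Jund at chr8:70697739-70700616 on the plus strand. The stretches below are chr12:85473640-85473889 for Fos, chr1:191183334-191183583 for Atf3, chr8:84978749-84978998 for Junb and chr8:70697489-70697738 for Jund. Each is written 5′ to 3′ on the gene's strand. Capitals mark TGACG, the core of the cyclic AMP response element, or its reverse complement CGTCA, and the TATA box TATAAA.
Fos: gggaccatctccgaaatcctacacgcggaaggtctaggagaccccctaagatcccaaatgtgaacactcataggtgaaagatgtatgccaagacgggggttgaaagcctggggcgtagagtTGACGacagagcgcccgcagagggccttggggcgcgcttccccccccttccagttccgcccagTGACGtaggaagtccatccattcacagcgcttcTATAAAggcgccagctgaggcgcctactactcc
Atf3: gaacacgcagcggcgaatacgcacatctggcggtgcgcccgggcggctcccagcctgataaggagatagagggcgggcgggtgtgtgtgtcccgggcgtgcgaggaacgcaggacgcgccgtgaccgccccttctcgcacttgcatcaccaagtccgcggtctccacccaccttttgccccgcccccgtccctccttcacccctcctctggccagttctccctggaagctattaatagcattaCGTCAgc
Junb: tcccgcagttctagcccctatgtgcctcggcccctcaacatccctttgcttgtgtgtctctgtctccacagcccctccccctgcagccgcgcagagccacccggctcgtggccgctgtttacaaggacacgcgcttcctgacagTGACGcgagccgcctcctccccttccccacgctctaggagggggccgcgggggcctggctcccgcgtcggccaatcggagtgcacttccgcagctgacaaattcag
Jund: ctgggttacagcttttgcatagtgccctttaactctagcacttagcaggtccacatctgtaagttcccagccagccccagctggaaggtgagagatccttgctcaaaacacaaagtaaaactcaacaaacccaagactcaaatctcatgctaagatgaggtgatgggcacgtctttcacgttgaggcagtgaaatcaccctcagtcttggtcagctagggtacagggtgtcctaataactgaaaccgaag
TGACG on either strand was found in 5 of the 8 promoters (Atf3, Fos, Fosb, Junb and Nr4a1) and in 17.8% of the 32851 promoters in the table. Counted back from the base before the start as -1, it lay at -129 to -125 and at -66 to -62 in Fos, at -7 to -3 in Atf3 and at -106 to -102 in Junb. The full element TGACGTCA, which contains TGACG, was in 0 of 8 and in 1.55% of all promoters, and the AP-1 site TGANTCA was in 0 of 8 and in 6.75%. TATAAA was in Fos alone, at -33 to -28, and in 12.4% of all promoters. The CArG box, the core of the serum response element, was in Zfp36 alone and in 1.47% of all, and the GC box GGGCGG (not capitalised) was in 6 of 8 and in 32.7%. The Jund window held none of these 6 motifs. Motifs were searched on both strands, and a match is a description of the letters, not of a bound site. Elements further upstream, or with other letters, would not be found in this way.

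Summed over the 10 genes, levels were highest in nerve cells 3 (21953 CPM ± 9488, SD, n = 3 libraries) and nerve cells 2 (16064 ± 3680, n = 2). Next came pericytes, the cells that wrap small vessels (8702 ± 2602, n = 4), and endothelial cells 2 (7395 ± 1141, n = 4). Tendon fibroblasts 1 (5171 ± 1325, n = 4), endothelial cells 1 (4680 ± 1195, n = 4), immune cells (4400 ± 429, n = 3) and tendon fibroblasts 2 (4004 ± 1128, n = 3) formed a middle group whose ranges overlapped. Tendon fibroblasts 3 (6085 CPM) and endothelial cells 3 (3481 CPM) reached 5 cells in library 1 only. Bursal fibroblasts (2640 ± 1658, n = 3), nerve cells 1 (1071 ± 557, n = 3) and red blood cells (74.3 ± 57.3, n = 4) came last. Of the 12 neighbouring pairs in this order, 9 had overlapping library ranges. The exceptions were nerve cells 2 over pericytes, endothelial cells 2 over tendon fibroblasts 3, and nerve cells 1 over red blood cells.

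Red blood cells have no nucleus and serve here as a comparison for low levels: 111 of their 145 cells had no UMI of any member. Jund made up 52.8% of their member UMIs against 12.7% over all cells, and Fos 13.9% against 24.3%. Whether these UMIs are RNA carried over from other cells was not tested. Because hemoglobin fills most of these cells' libraries, the same UMIs were also set against the rest of their RNA, a step chosen after seeing the data. On that denominator the sum was 1066, 1725, 518 and 1767 CPM in libraries 1 to 4 (mean 1269). It rested on 72 UMIs of 50184, of which 38 were Jund. Nerve cells 1, at 634, 1698 and 882 CPM in libraries 1 to 3, and bursal fibroblasts of library 1, at 1021 CPM, lay inside that range, and the sums of the other populations and libraries lay above it. No library was high or low throughout. Among the 10 populations with 3 or more libraries, libraries 1, 2, 3 and 4 were the highest in 3, 5, 2 and 0 and the lowest in 3, 1, 3 and 3.

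**Figure D1:**
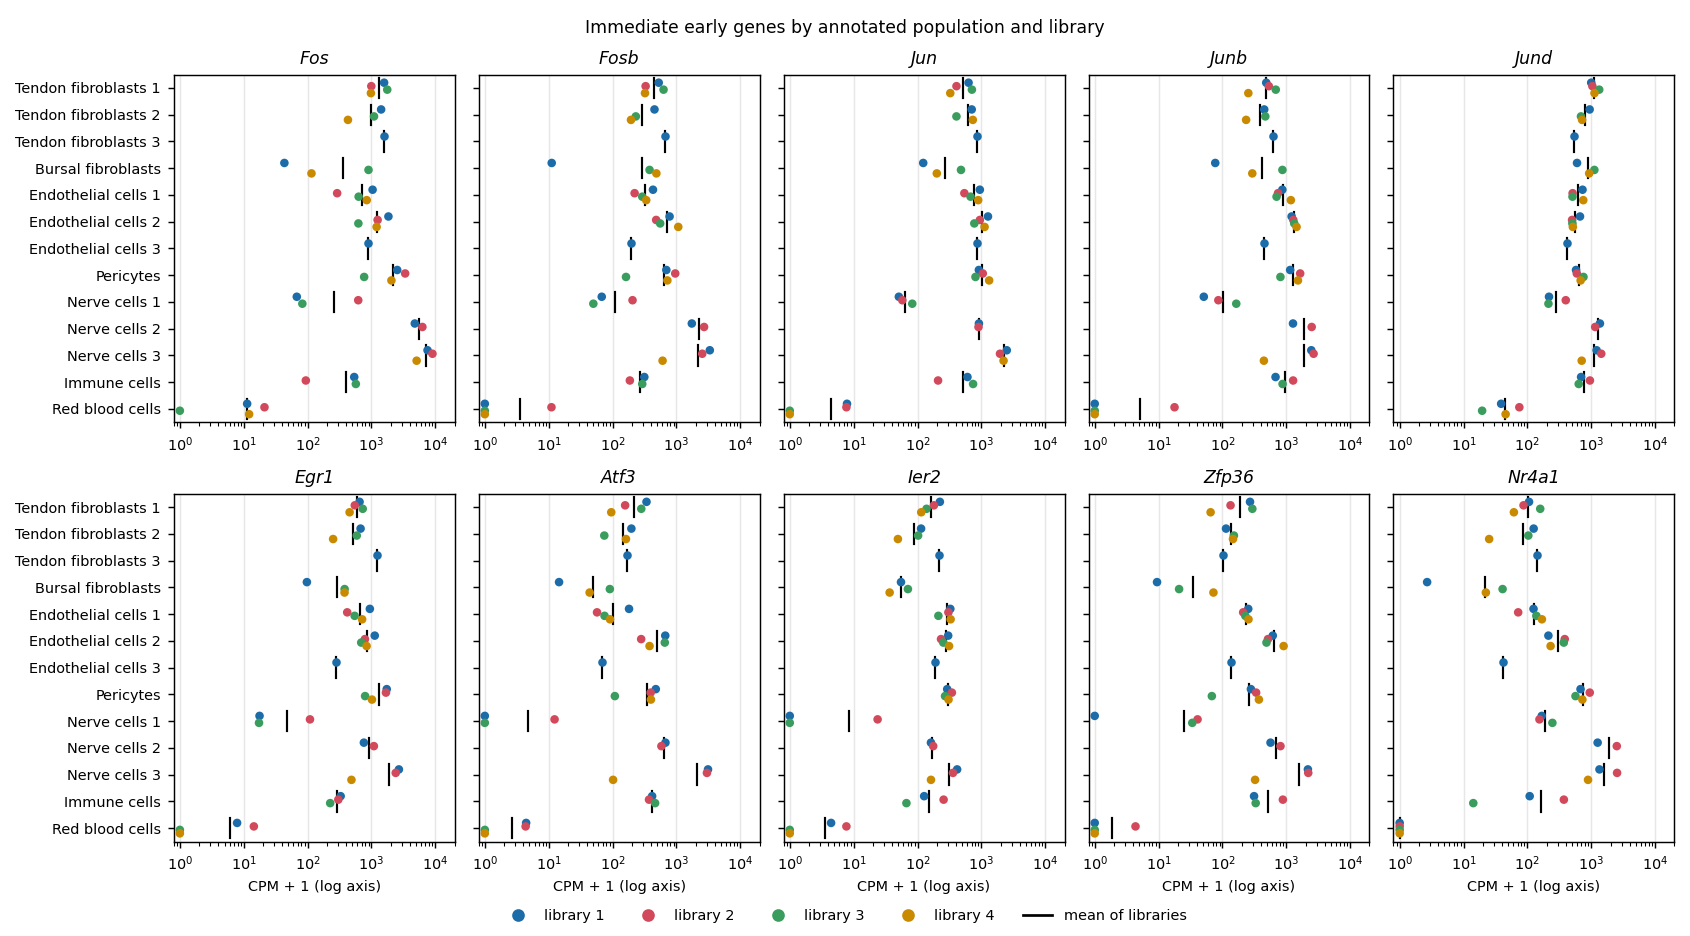
Level of each of the 10 genes (CPM + 1, log axis) in the 13 annotated populations, with 1 point per library (sums of 5 or more cells) and a black bar at the mean of the libraries. Red blood cells have the lowest mean in every panel, and nerve cells 2 or nerve cells 3 the highest.

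Fos, the founding member of the AP-1 family, was at 7543, 8999 and 5088 CPM in nerve cells 3 of libraries 1, 2 and 4 and at 4763 and 6261 CPM in nerve cells 2 of libraries 1 and 2. In nerve cells 1 it was at 66.7, 619 and 81.7 CPM in libraries 1 to 3. The 3 nerve populations of the same tendon thus held both the highest Fos levels and, red blood cells apart, the lowest mean (256 ± 315), with no overlap between nerve cells 1 and nerve cells 2 or 3. Pericytes ran from 766 CPM in library 3 to 2526, 3363 and 2049 in libraries 1, 2 and 4. Tendon fibroblasts 1 were at 1575, 992, 1763 and 978 CPM and endothelial cells 2 at 1840, 1246, 622 and 1202 CPM, so these overlapped each other and the pericytes. In red blood cells Fos was at 10.3, 20.1, 0 and 11.1 CPM, where the 0 of library 3 allows up to 55.6 CPM (3 counts; such limits cover counting error only).

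Fosb, a Fos homologue that also pairs with Jun proteins, was highest in nerve cells 2 (1740 and 2706 CPM) and nerve cells 3 (3327, 2532 and 606 CPM). The library 4 value of nerve cells 3, from 5 cells, lay within the range of endothelial cells 2 (780, 480, 555 and 1067 CPM). Tendon fibroblasts 1 stood at 527, 328, 627 and 321 CPM and nerve cells 1 at 66.7, 204 and 49.0 CPM, with no overlap. For Fos 10 and for Fosb 11 of the 12 neighbouring pairs in the order of populations overlapped.

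Jun, the main partner of Fos in AP-1, was at 2495, 1954 and 2221 CPM in nerve cells 3, above the range of every other population. Endothelial cells 2 (1267, 945, 774 and 1121 CPM) and pericytes (912, 1050, 807 and 1321 CPM) overlapped. Tendon fibroblasts 1 (629, 406, 709 and 325 CPM) lay below both, and nerve cells 1 (50.02, 56.8 and 81.7 CPM) lay lower still.

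Junb, which activates AP-1 sites weakly and restrains Jun, was at 1209, 1284, 1329 and 1445 CPM in endothelial cells 2, the narrowest range of libraries it had. Endothelial cells 1 were at 864, 740, 702 and 1176 CPM, below endothelial cells 2 in every library. Tendon fibroblasts 1 were at 484, 531, 682 and 253 CPM and nerve cells 1 at 50.02, 85.2 and 163 CPM.

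Jund, the Jun family member known for steady expression in resting cells, behaved differently. It was at 996, 1039, 1329 and 1121 CPM in tendon fibroblasts 1 and at 1364 and 1150 CPM in nerve cells 2, which overlap. Endothelial cells 1 were at 728, 509, 507 and 748 CPM and pericytes at 576, 592, 753 and 680 CPM, so for this gene the vessel populations lay below tendon fibroblasts 1 in every library. Nerve cells 1 were at 217, 398 and 212 CPM. Red blood cells apart, the ratio of its highest to its lowest library within a population ran from 1.19 to 2.03 over 10 populations (median 1.42). In red blood cells it was 3.98 (18.5 to 73.7 CPM). For Fos, red blood cells apart, that ratio ran from 1.32 to 21.2 (median 3.46). Of the 10 genes Jund had the lowest median and Fos the highest. Jun lay nearer to Jund, with 1.02 to 3.93 (median 1.69).

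Egr1, a zinc finger transcription factor induced by growth factor and mechanical signals and long studied in tendon, was at 2684, 2394 and 485 CPM in nerve cells 3. Pericytes followed at 1731, 1683, 793 and 1016 CPM, overlapping endothelial cells 2 at 1123, 788, 690 and 838 CPM. Tendon fibroblasts 1 were at 649, 547, 728 and 453 CPM and nerve cells 1 at 16.7, 108 and 16.3 CPM.

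Nr4a1, an orphan nuclear receptor, was highest in nerve cells 2, nerve cells 3 and pericytes. Nerve cells 2 were at 1256 and 2506 CPM, nerve cells 3 at 1342, 2532 and 888 CPM and pericytes at 677, 945, 565 and 724 CPM. Every pericyte library lay above every library of endothelial cells 2 (212, 383, 370 and 230 CPM) and of tendon fibroblasts 1 (105, 86.0, 158 and 60.4 CPM). Nerve cells 1, low for the other 9 genes, kept 167, 153 and 245 CPM of Nr4a1, above the median of tendon fibroblasts 1. Red blood cells had 0 Nr4a1 UMIs in 145 cells, which allows up to 4.09 CPM.

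Atf3, a stress-induced member of the ATF family that also pairs with Jun proteins, was uneven between the nerve cells. Nerve cells 3 were at 3119 and 3000 CPM in libraries 1 and 2 but 101 CPM in library 4 (5 cells). Nerve cells 2 were at 672 and 581 CPM, while nerve cells 1 were at 0, 11.4 and 0 CPM, where the 2 values of 0 allow up to 50.02 and 49.0 CPM. Endothelial cells 2 were at 667, 279, 656 and 378 CPM against 180, 56.1, 73.9 and 90.2 CPM in endothelial cells 1, with no overlap.

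Ier2, a small nuclear protein that acts on transcription, was at 416, 358 and 162 CPM in nerve cells 3, at 325, 303, 211 and 329 CPM in endothelial cells 1 and at 291, 344, 269 and 305 CPM in pericytes, which overlap. Tendon fibroblasts 1 were at 223, 180, 138 and 113 CPM. Nerve cells 1 were at 0, 22.7 and 0 CPM, where the values of 0 have the same limits as for Atf3.

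Zfp36 encodes tristetraprolin, which binds AU-rich elements and shortens the life of inflammatory and immediate early messages. It was at 2174, 2201 and 323 CPM in nerve cells 3 and at 564 and 808 CPM in nerve cells 2. Endothelial cells 2 (612, 515, 488 and 905 CPM) did not overlap endothelial cells 1 (252, 210, 227 and 255 CPM). Immune cells were at 311, 881 and 330 CPM, and bursal fibroblasts at 8.46, 19.9 and 71.2 CPM in libraries 1, 3 and 4, overlapping nerve cells 1 (0, 39.8 and 32.7 CPM).

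Pairs of populations were compared with edgeR's quasi-likelihood test on the summed counts of each library, with library as a block and Benjamini-Hochberg adjustment over all genes. Called means an adjusted p under 0.05. The comparisons share sums (tendon fibroblasts, endothelial cells, pericytes and nerve cells each enter several), so they are not independent and each is given on its own. Fold changes are after TMM scaling. Scaling by total counts instead moved the median log2 fold change of all genes by more than 0.1 in most comparisons, to -0.41 for tendon fibroblasts against endothelial cells and to -0.44 for tendon fibroblasts against immune cells. Where a member's direction turned with it is said below.

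Most members separated endothelial cells 1 from endothelial cells 2. Of the 10 members 8 were lower in endothelial cells 1 and 0 higher, where 18.2% of 5126 genes were called in either direction. Atf3 fell by 2.29 on the log2 scale (SE 0.20, edgeR adjusted p = 5.2e-07), Zfp36 by 1.45 (SE 0.17, edgeR adjusted p = 1.1e-05), Nr4a1 by 1.37 (SE 0.26, edgeR adjusted p = 0.00102) and Fosb by 1.21 (SE 0.17, edgeR adjusted p = 7.9e-05). These 4 were called under all 12 alternatives. Fos (-0.99), Junb (-0.68), Jun (-0.53) and Egr1 (-0.52) also passed, with edgeR adjusted p of 0.00692, 0.00283, 0.0216 and 0.034. Without library 2 these 4 were not called: Fos was at -0.55 (edgeR adjusted p = 0.118), Junb at -0.60 (0.0562), Jun at -0.38 (0.247) and Egr1 at -0.32 (0.367). Without library 1 Jun (0.137) and Egr1 (0.111) were not called. Over the 12 alternatives the edgeR or DESeq2 adjusted p ran from 1.9e-05 to 0.118 for Fos, 8.2e-04 to 0.0562 for Junb, 0.0103 to 0.247 for Jun and 0.0233 to 0.367 for Egr1. Jund (0.10) and Ier2 (0.07) did not pass.

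Other early response genes were compared in the same way. Of 41 such genes 37 were tested, 17 were lower in endothelial cells 1 and 3 higher, with a list median of -0.51 against 0.02 over all genes. Gem, a small GTPase, was at -3.14, the phosphatase Dusp2 at -2.74, the transcription factor Myc at -2.02 and Ier3 at -1.95, while Rhob was at 1.48. Gem, Dusp2 and Myc averaged 16.4, 30.1 and 21.0 CPM in endothelial cells 1 and passed edgeR's filter on low counts through endothelial cells 2. Their direction was fixed by the filter, so nothing is read from the count or the list median. Of 12 heat shock genes 6 were lower and 1 higher: Hsph1 was at -1.51, Hspa5 at -0.77 and Hsp90ab1 at -0.69, and Hspa1a at 0.81. Hsph1, which averaged 29.0 CPM in endothelial cells 1, also passed the filter through endothelial cells 2, and nothing is read from that count. Of 11 other AP-1 partners 7 were tested and 2 were lower, among them Atf4 at -0.54. Endothelial cells 1 and 2 had median depths of 7343 and 8322 UMIs and median mitochondrial shares of 4.37% and 6.14%. Immune markers summed to 5.28 to 25.7 CPM in endothelial cells 1 and to 0 to 31.4 CPM in endothelial cells 2, and pericyte markers to 232 to 964 CPM and 81.1 to 1280 CPM. The part of these values in the result was not tested.

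Pericytes exceeded endothelial cells 1 and 2 in 4 members, and 0 were lower in pericytes, where 34.8% of 5775 genes were called in either direction. The share of members called is near that among all genes. Nr4a1 was at 148, 195, 193 and 180 CPM in endothelial cells against the 565 to 945 CPM of pericytes, a log2 fold change of -2.15 (SE 0.19, edgeR adjusted p = 1.5e-05), lower in all 4 libraries. Fos was at 1259, 670, 627 and 911 CPM in endothelial cells, at -1.34 (SE 0.28, edgeR adjusted p = 0.00371), and Egr1 was at -0.95 (SE 0.21, edgeR adjusted p = 0.00532). Atf3 passed narrowly at -0.93 (SE 0.32, edgeR adjusted p = 0.045) and was not called without library 1 (0.109), 2 (0.249) or 4 (0.193); over 12 alternatives its adjusted p ran from 6.5e-04 to 0.249. Of 40 other early genes 14 were lower in endothelial cells and 7 higher: Cebpb (-2.25), Nr4a2 (-1.71) and Gadd45b (-1.49) lay on the pericyte side, and Dusp6 (1.73), Klf2 (1.48) and Klf4 (1.35) on the endothelial side. Pericytes of library 3 had the lowest member sum (5096 CPM against 9303, 11307 and 9103), the highest endothelial marker sum (1654 CPM against 548, 365 and 963, with 0 of 5 markers at 0), 11 cells, a median of 5593 UMIs and 9.64% mitochondrial UMIs. The part of these values was not tested.

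Tendon fibroblasts 1 to 3 against pericytes gave 1 member higher and 3 lower, where 32.5% of 5540 genes were called. The share of members called is near that among all genes. Nr4a1 was at 120, 109, 127 and 68.9 CPM in tendon fibroblasts and fell by 2.40 (SE 0.26, edgeR adjusted p = 2.8e-05). Jund was at 891, 958, 982 and 984 CPM in tendon fibroblasts and at a log2 fold change of 0.92 (SE 0.19, edgeR adjusted p = 0.00267), with no overlap between the groups. Junb was at -1.13 (SE 0.31, edgeR adjusted p = 0.0159) and Ier2 at -0.64 (SE 0.21, edgeR adjusted p = 0.0332). Junb was not called without library 2 (0.0677) or 4 (0.0998), and Ier2 was not called whichever library was left out (0.0529 to 0.171), while 1 member was higher and 7 lower without library 3. By total counts 1 was higher and 6 lower. Jund and Nr4a1 were called under all 12 alternatives, while the adjusted p ran from 6.9e-04 to 0.0998 for Junb and from 0.0031 to 0.548 for Ier2. Of 39 other early genes 17 were lower in tendon fibroblasts and 3 higher, among them Ppp1r15a at -1.36 and Ctgf, a matricellular growth factor gene, at 3.32.

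Against endothelial cells 1 and 2, tendon fibroblasts had 2 members higher and 3 lower, where 43.6% of 7434 genes were called, so 5 of 10 is near the share among all genes. Jund was at 711, 505, 506 and 703 CPM in endothelial cells, below every tendon fibroblast library, with a log2 fold change of 1.10 (SE 0.18, edgeR adjusted p = 2.1e-04). Fos was at 1502, 952, 1397 and 806 CPM in tendon fibroblasts, higher than endothelial cells in 3 of 4 libraries, with a log2 fold change of 0.86 (SE 0.21, edgeR adjusted p = 0.00479) that fell to 0.43 (0.0968) by total counts. Junb (-0.71), Zfp36 (-0.63) and Ier2 (-0.49) were lower, with edgeR adjusted p of 0.0332, 0.025 and 0.0479. None of these 3 was called without library 4 (0.177, 0.139 and 0.208). Zfp36 was not called either without library 1 (0.0659) or 2 (0.052), nor Ier2 without library 1 (0.127) or 3 (0.0926). Over the 12 alternatives, all of which called Jund, the adjusted p ran from 7.9e-05 to 0.0968 for Fos, 8.1e-04 to 0.177 for Junb, 6.4e-04 to 0.139 for Zfp36 and 0.00102 to 0.208 for Ier2. By total counts Jund alone was higher and 5 members were lower (Jun, Junb, Ier2, Zfp36 and Nr4a1), and Fosb, Egr1 and Atf3, none of them called, turned from 0.32, 0.22 and 0.06 to -0.11, -0.21 and -0.37. Of 39 other early genes 20 were lower in tendon fibroblasts (Ier5l at -2.71) and 8 higher (Ctgf at 4.35, Cebpd at 1.91).

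Tendon fibroblasts 1 and 2 could be compared in libraries 1, 3 and 4. Fosb (0.995, SE 0.25, edgeR adjusted p = 0.0397) and Ier2 (0.98, SE 0.26, edgeR adjusted p = 0.0484) were higher in tendon fibroblasts 1, 2 of 10 members where 8.12% of 7043 genes were called. Neither call was stable. Fosb was not called without library 3 (0.244) or 4 (0.117), nor Ier2 without library 1 (0.377) or 4 (0.114), and 0 members were called without the library block, by DESeq2, by total counts or after thinning (4, 4, 4 and 2 at an unadjusted p under 0.05). Over 11 alternatives the adjusted p ran from 0.00194 to 0.402 for Fosb and from 0.00664 to 0.377 for Ier2. All 10 fold changes were above 0 with a median of 0.79 against 0.01 over all genes. Of 36 other early genes 8 were higher (Ctgf at 3.74, Dusp1 at 1.40) and 1 was lower (Gem at -2.07), and of 12 heat shock genes 3 were higher (Hspa1a at 1.25).

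Tendon fibroblasts against immune cells (libraries 1, 2 and 3) gave 3 members higher and 0 lower, where 29.1% of 5204 genes were called. The share of members called is near that among all genes. Fos was at 535, 92.8 and 568 CPM in immune cells, below the tendon fibroblasts of every library, at a log2 fold change of 2.24 (SE 0.38, edgeR adjusted p = 7.5e-04). Egr1 was at 1.63 (SE 0.32, edgeR adjusted p = 0.00191) and Fosb at 1.13 (SE 0.30, edgeR adjusted p = 0.0147). Fosb was not called without library 1 (0.17) or 3 (0.0558; 0.00124 to 0.17 over 11 alternatives), and without library 2, whose immune sum held 10 cells, 6 members were called. By total counts Fos and Egr1 were higher, Atf3 and Zfp36 lower, and Nr4a1, not called, turned to -0.02. Of 8 other AP-1 partners tested 2 were lower in tendon fibroblasts, among them Maf (-3.23), and 1 was higher.

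Against nerve cells 1 to 3 as 1 class, tendon fibroblasts differed in 1 member, where 28.7% of 4874 genes were called. Nr4a1 was at 1024, 1784, 556 and 842 CPM in nerve cells and fell by 2.85 in tendon fibroblasts (SE 0.37, edgeR adjusted p = 6.5e-04). Without the library block or without library 3 the same 3 members were called (Fos, Zfp36 and Nr4a1, all lower), and without library 4 it was Atf3, Zfp36 and Nr4a1. Of 37 other early genes 8 were lower and 3 higher: the related receptors Nr4a3 and Nr4a2 were at -4.45 and -3.01, and Egr3 and Egr2, the latter a Schwann cell regulator, at -3.72 and -2.86. Nr4a3, Egr3 and Egr2 averaged 12.45, 8.835 and 24.71 CPM in tendon fibroblasts and passed the filter on low counts through nerve cells. Nothing is read from this count. The nerve class joins populations with very different levels, with Fos at 256 CPM in nerve cells 1 and 5512 in nerve cells 2.

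**Figure D2:**
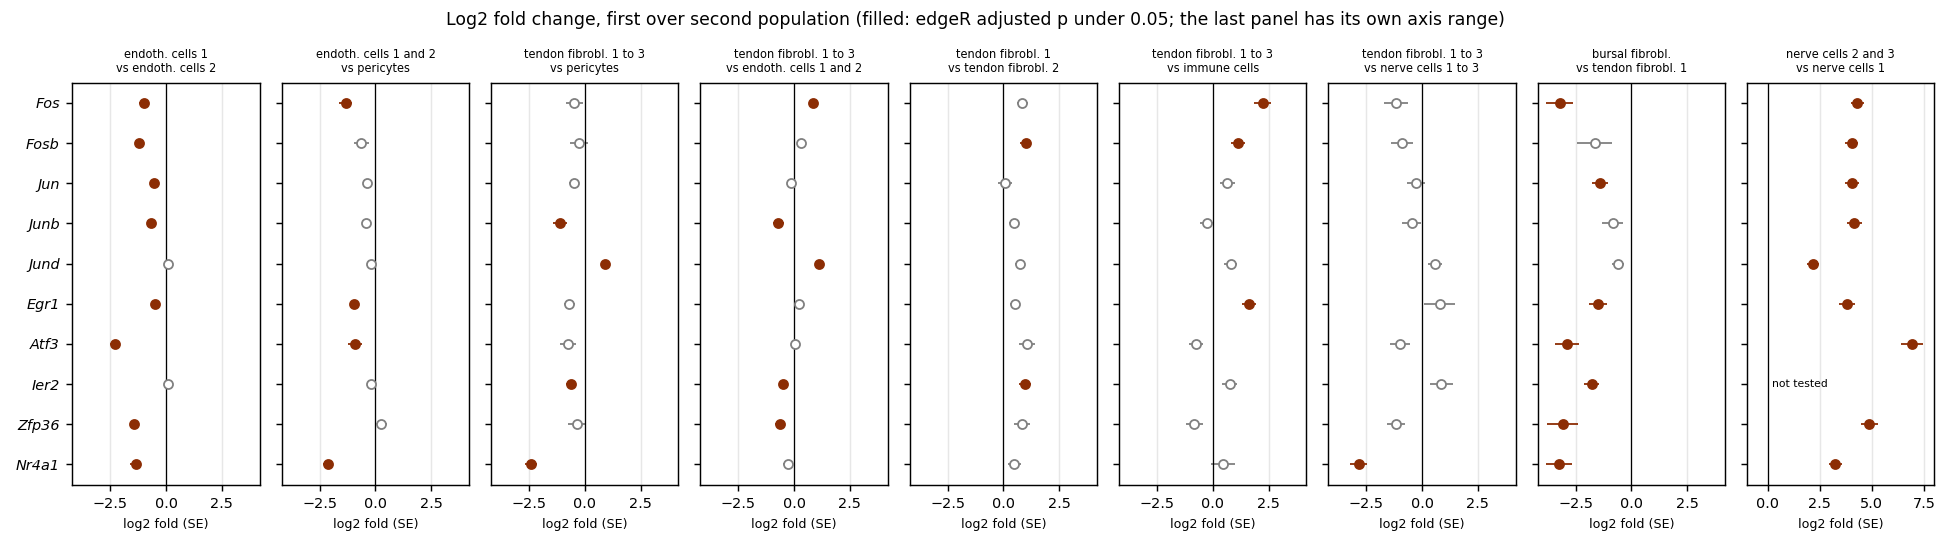
Log2 fold change, first population over the second, with its SE, for the 10 genes in the 9 comparisons, and filled points where the edgeR adjusted p was under 0.05. In the panel of endothelial cells 1 against 2, 8 filled points lie left of 0. The panel of nerve cells 2 and 3 against nerve cells 1 has its own axis range. There 9 filled points lie right of 0, and all but Jund and Nr4a1 passed the filter on low counts through nerve cells 2 and 3.

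That contrast within the nerve was therefore fitted as well, a choice made after seeing the data. It used libraries 1 to 3, with 34, 36 and 3 cells of nerve cells 2 and 3 and 15, 23 and 10 of nerve cells 1. Of the 10 members 9 passed the filter on low counts and were called higher in nerve cells 2 and 3, where 18.3% of 2081 genes were called. Jund and Nr4a1 apart, these members passed the filter through nerve cells 2 and 3. Atf3, Zfp36, Jun and Egr1 had 2, 9, 18 and 21 UMIs in nerve cells 1. Fos, Fosb and Junb were low in part of the libraries there. The direction of members that passed in this way was fixed by the filter, so nothing is read from the count. Their fold changes are descriptions, given without a p-value. Fos was at 5492, 6512 and 3358 CPM against 66.7, 619 and 81.7 CPM, a log2 fold change of 4.31 (SE 0.32). Junb was at 4.15, Jun at 4.04, Fosb at 4.03, Zfp36 at 4.88 and Egr1 at 3.81. Nr4a1 (3.24, SE 0.31) and Jund (2.15, SE 0.29, edgeR adjusted p = 1.6e-08) had the lowest fold changes. Jund was at 1323, 1176 and 1933 CPM against 217, 398 and 212 CPM. Atf3 had 604 UMIs against 2, a ratio of 145 (exact 95% interval 40.1 to 1203), and Ier2, with 4 UMIs in nerve cells 1, was not tested. The summed level of nerve cells 1 (634 to 1698 CPM) lay within the red blood cell range outside hemoglobin genes (518 to 1767 CPM), where Jund was 38 of the 72 UMIs. Single members differed from that sum. Red blood cells had 0 Nr4a1 in 50184 UMIs, which allows up to 59.8 CPM, against 153 to 245 CPM in nerve cells 1. In library 2 Fos and Fosb of nerve cells 1 (619 and 204 CPM) also lay above the highest red blood cell library on that denominator (353 and 112.5 CPM).

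Of 29 other early genes tested in the nerve contrast 24 were called higher, but many of them had 0 to 3 UMIs in nerve cells 1 and passed the filter through nerve cells 2 and 3, so nothing is read from the count. Cebpd had 277 UMIs against 0, at least 44.4-fold higher, Maff at least 24.2-fold and Myc at least 14.3-fold (floor of 3 counts over the group). Nr4a3 had 511 UMIs against 3, a ratio of 82.0 (27.9 to 399). Of 10 heat shock genes tested 7 were called higher, with Hspa1b at 3.47, Hsp90aa1 at 1.93 and Hspa5 at 1.88. Hspa1b averaged 39.2 CPM in nerve cells 1 and also passed the filter through nerve cells 2 and 3. Nothing is read from this count either. Of 5 AP-1 partners tested 1, Atf4, was called higher, at 2.35. Nerve cells 1, 2 and 3 had median depths of 4887, 10370 and 2591 UMIs and mitochondrial medians of 7.04%, 3.90% and 4.50%. Tendon fibroblast markers summed to 2118 to 2597, 1485 to 2389 and 1979 to 3660 CPM and immune markers to 0 to 16.3, 0 to 50.9 and 0 to 444 CPM in the 3 populations. Pericyte markers summed to 49.0 to 183 CPM in nerve cells 1 (2 of 6 at 0), 47.0 to 58.3 CPM in nerve cells 2 (0 at 0) and 0 to 1555 CPM in nerve cells 3 (2 at 0). Their part was not tested.

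Bursal fibroblasts, which line the fluid-filled pad beside the tendon, were set against tendon fibroblasts 1 in libraries 1, 3 and 4, also after seeing the data. Here 7 members were lower and 0 higher, where 15% of 5186 genes were called. Fos was at 42.3, 897 and 114 CPM against 1575, 1763 and 978 CPM, a log2 fold change of -3.21 (SE 0.60, edgeR adjusted p = 0.00182). Nr4a1 was at -3.24 (SE 0.59, edgeR adjusted p = 0.00131), Zfp36 at -3.08, Atf3 at -2.87, Ier2 at -1.79, Egr1 at -1.50 and Jun at -1.41, with edgeR adjusted p of 0.00644, 0.00169, 0.00243, 0.0194 and 0.014. Nr4a1, Zfp36 and Atf3, with 8, 17 and 23 UMIs in bursal fibroblasts, passed the filter through tendon fibroblasts 1. Nothing is read from the adjusted p of these members or from the count of members called. Fosb (-1.65), Junb (-0.84) and Jund (-0.60) did not pass. Without library 1, which held 30 of the 40 bursal cells, 3 members were called (Fos, Atf3 and Nr4a1), and without the library block Fos (0.0573) and Jun (0.0546) were not. After thinning, which left libraries 1 and 3 only, 0 of 9 were called by edgeR (8 at an unadjusted p under 0.05), with Fos at -2.44 (0.0914; 2.8e-16 to 0.0914 over 10 alternatives). Zfp36 ran from -7.47 to -1.91 over the alternatives. The edgeR or DESeq2 adjusted p reached 0.207 for Zfp36 and 0.181 for Ier2 (each called in 8 of 10), 0.0629 for Atf3 (9 of 10), 0.116 for Egr1 (7 of 10) and 0.125 for Jun (6 of 10). Of 33 other early genes 15 were lower and 0 higher (Nr4a2 at -4.94, Gadd45b at -3.79, Dusp1 at -3.00). Nr4a2 and Gadd45b averaged 7.206 and 22.04 CPM in bursal fibroblasts and also passed the filter through tendon fibroblasts 1. Their direction was fixed by the filter, so nothing is read from the count of these early genes. Bursal cells had a median of 20284 UMIs against 8824 in tendon fibroblasts 1, and Tnmd, a defining tendon gene, was at 0 in all 3 bursal sums. Red blood cell genes summed to 29.9 to 9368 CPM in bursal fibroblasts and to 52.6 to 305 CPM in tendon fibroblasts 1 (0 of 5 at 0 in both). The part of these values in the result was not tested, since the thinned fit also lost a library.

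Within a population, cells differed widely. The 10 genes made up a median of 0.307% of a cell's UMIs in tendon fibroblasts 1, with a 10th percentile of 0.065%, a 90th of 1.28% and a maximum of 3.11%. Pericytes ran from 0.0554% (10th percentile) through 0.621% to 2.06% (90th), and endothelial cells 1 reached 5.48% in 1 cell. Nerve cells 2 were the most even, from 0.936% through 1.50% to 2.27%. Nerve cells 3 had a median of 2.73% (10th percentile 0.068%) and nerve cells 1 of 0.0591%. The top 10% of cells held 42.7% of the members' UMIs in tendon fibroblasts 1, 43.7% in pericytes, 28.4% in nerve cells 2 and 59.3% in nerve cells 1. By library the medians were 0.649%, 0.872%, 0.197% and 0.598% in pericytes and 0.718%, 0.623%, 0.590% and 0.839% in endothelial cells 2. Library 3 was the lowest in both. In pericytes it stood far below the next library (0.598%), and in endothelial cells 2 it lay close to it (0.623%).

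**Figure D3:**
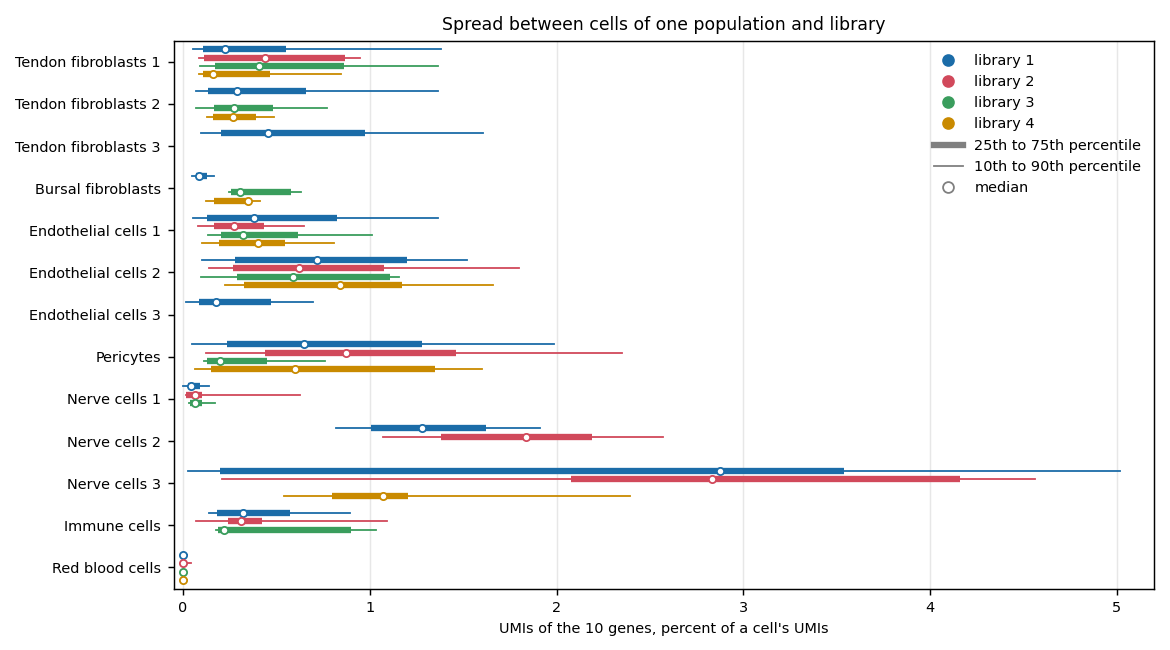
Percent of a cell's UMIs that came from the 10 genes, by population and library, with the median (open point), the 25th to 75th percentile (thick line) and the 10th to 90th percentile (thin line) over cells. The medians of nerve cells 2 and 3 lie to the right of those of the other populations, but the ranges overlap. The 25th percentile was 0.2% in nerve cells 3 of library 1, and the 75th was 1.462% in pericytes of library 2. The medians of nerve cells 1 and red blood cells lie nearest to 0.

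To compare cells at 1 depth, each was thinned to 2400 UMIs, which left out 114 of 1191 cells (13 of 32 in nerve cells 3 and 39 of 145 in red blood cells). As a mean over libraries, Fos was then seen in 50.7% of cells of tendon fibroblasts 1, 71.9% of endothelial cells 2, 68.7% of pericytes, 100% of nerve cells 2 and 88.8% of nerve cells 3, but in 19.0% of nerve cells 1 and 0.581% of red blood cells. The shares of nerve cells 2 and of nerve cells 3 are means of 2 libraries each, without library 3 and library 4 in turn. Fos was in 81.25% of all 32 nerve cells 3 before thinning. Before thinning the red blood cell share was 4.14%, at a median of 4132 UMIs. Jund was the member seen most evenly, in 86.0% of tendon fibroblasts 1 and 47.2% of nerve cells 1, but it also had the highest red blood cell share, 8.96%. Nr4a1 was seen in 92.4% of nerve cells 2, 56.8% of pericytes, 37.1% of nerve cells 1 and 23.6% of tendon fibroblasts 1, against 0 of 106 red blood cells, which allows up to 2.83%. Atf3 was seen in 93.8% of nerve cells 3, 72.2% of nerve cells 2 and 1.52% of nerve cells 1, against 0.595% of red blood cells, where each of the last 2 shares rests on 1 cell. Of all 32 nerve cells 3 before thinning, 71.88% had an Atf3 UMI. Ier2 was seen in 0 of 47 nerve cells 1, which allows up to 6.38% at this depth. Before thinning 2 of 49 of these cells had an Ier2 UMI.

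**Figure D4:**
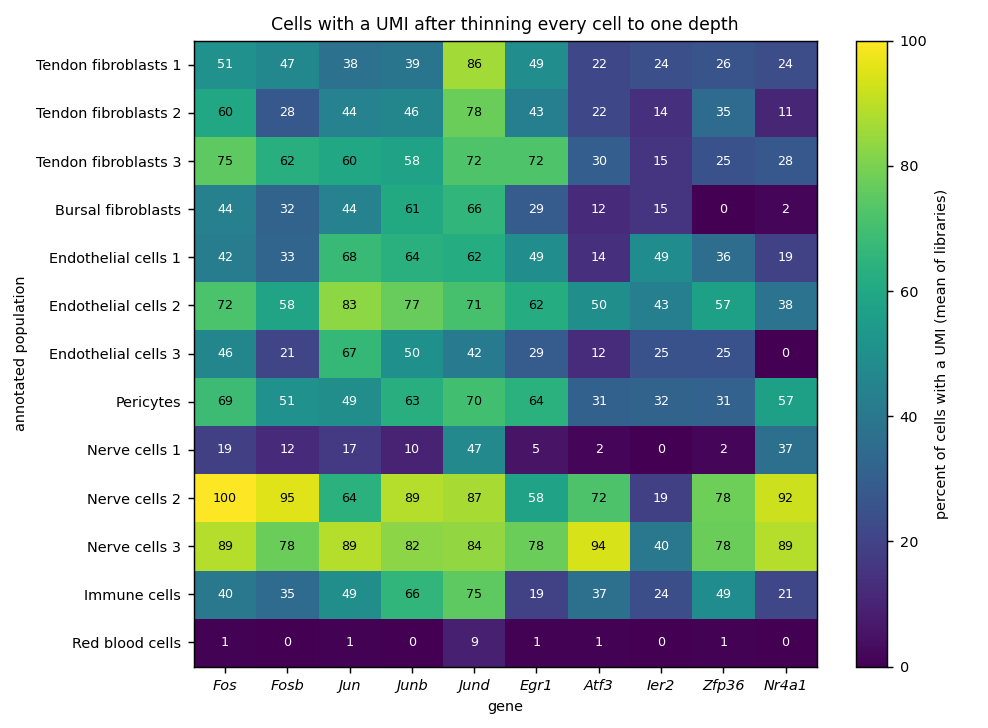
Percent of cells with a UMI of each gene after thinning every cell to 2400 UMIs, as the mean over libraries, for the 13 populations. The Fos column runs from 0.581% in red blood cells to 100% in nerve cells 2, and Jund is the column with the highest values in tendon fibroblasts 1 (86.0%). The means of nerve cells 2 and of nerve cells 3 are over 2 libraries each.

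The spread between cells was read from the Fano factor, the variance over the mean of thinned counts, which is near 1 for counting noise alone. It was ranked among genes with a mean of at least 0.1 UMI per cell. Because the Fano factor grows with the mean, the ranks describe these counts and are no test. In tendon fibroblasts 1 the median over members was 3.12 against 1.10 over all genes, and 8 of 10 members were in the top 5% (3 at 1500 UMIs). Fos had a Fano factor of 8.41 there and rank 39 of 3069: 54.0% of cells had a UMI, the 90th percentile was 10 UMIs and the maximum 33. Jund, although seen in more cells, had 1.57 and rank 303, and Nr4a1 1.32 and rank 585. In pericytes 7 members were in the top 5%, with Fos at 6.51 (rank 21 of 3966), Egr1 at 5.58 (rank 25) and Jund at 1.49 (rank 427). In endothelial cells 2 it was 8 members, with Fos at 6.25 (rank 16 of 4190) and Ier2 at 1.01 (rank 2466). In nerve cells 2 Fos was seen in 44 of 45 cells with a mean of 11.6 UMIs and a Fano factor of 4.17.

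Members rose and fell together from cell to cell in most populations. Pearson's r was taken over thinned cells as a description, since cells share a library and a fixed total. The median over pairs of members was 0.409 in pericytes (104 cells), 0.385 in endothelial cells 3 (32), 0.313 in tendon fibroblasts 1 (161), 0.296 in endothelial cells 2 (69) and 0.252 in immune cells (87). It was 0.0141 in nerve cells 1 (47 cells) and 0.00458 in nerve cells 2 (45 cells). Among the strongest pairs were Fos with Egr1 (0.741) and Fos with Nr4a1 (0.720) in pericytes and Fos with Jun (0.672) in tendon fibroblasts 1. Pairs with Jund had a lower median in several populations: it was 0.167 against 0.381 for the other pairs in tendon fibroblasts 1, -0.0035 against 0.299 in tendon fibroblasts 2, 0.230 against 0.433 in pericytes and 0.0144 against 0.277 in immune cells. In nerve cells 1 (0.116 against -0.0505) and bursal fibroblasts (0.199 against 0.187) pairs with Jund had the higher median.

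**Figure D5:**
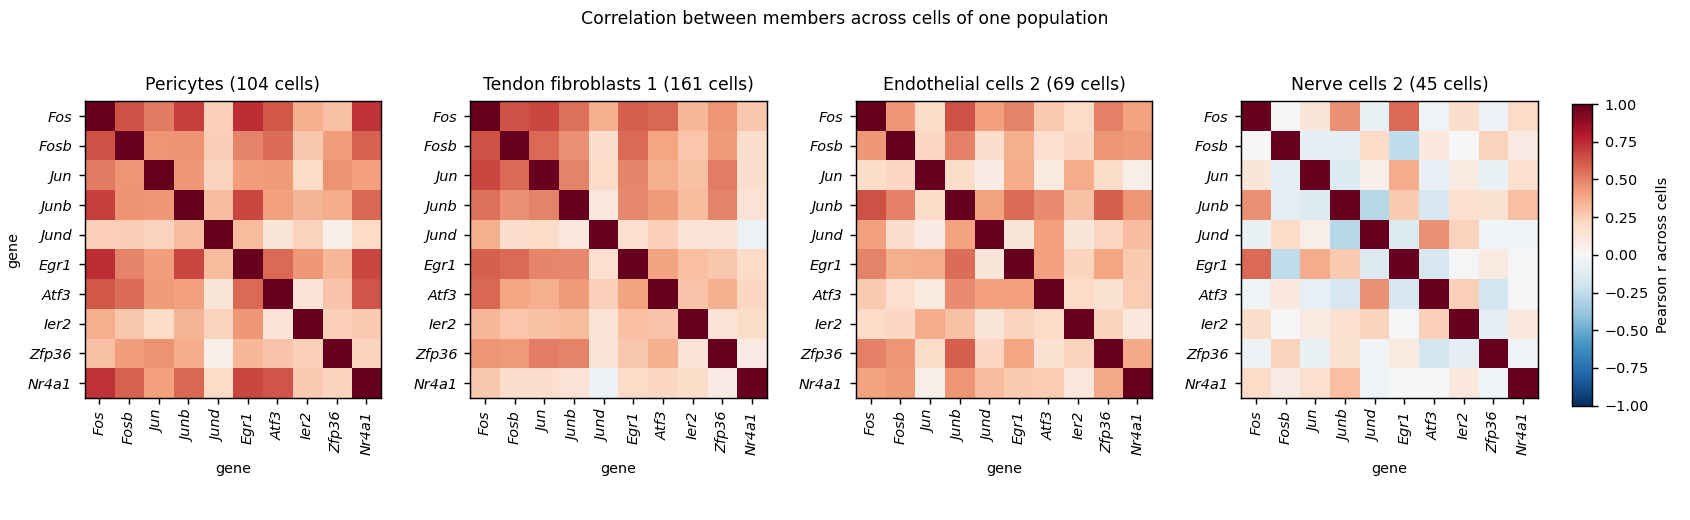
Pearson r between pairs of the 10 genes across cells of 1 population, each cell thinned to 2400 UMIs, with the number of cells above each panel. Pairs in pericytes (median 0.409) are all above 0, the Jund row there is pale (median 0.230), and pairs in nerve cells 2 (median 0.00458) show no common sign.

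The members' sum per cell also went with other early genes and with heat shock genes. In pericytes r was 0.843 with the 41 other early genes and 0.660 with the heat shock genes, and in tendon fibroblasts 1 it was 0.705 and 0.703. In nerve cells 2 it was 0.304 and 0.0521. With the mitochondrial share r was -0.388 in tendon fibroblasts 1, -0.603 in endothelial cells 3, -0.144 in pericytes and -0.0429 in endothelial cells 1, but 0.336 in bursal fibroblasts (37 cells), 0.191 in red blood cells and 0.139 in nerve cells 2. With the log of UMIs before thinning r ran over the 12 populations from -0.234 in bursal fibroblasts to 0.325 in tendon fibroblasts 1, with 0.323 in pericytes, 0.00965 in tendon fibroblasts 3 and -0.176 in immune cells. Among the genes outside the lists whose log2(CPM + 1) followed the members' mean most closely over 39 sums of library and population, of 3293 genes compared, were Brd2 (r = 0.949), Ripk1 (0.933), Hspa2 (0.931), Ppp1r10 (0.930) and Chka (0.929). Without the red blood cell sums (35 left) these were 0.850, 0.786, 0.797, 0.786 and 0.769. Among the members Egr1 followed that mean most closely (0.978, and 0.939 without red blood cells). Nr4a1 (0.852 and 0.639) and Jund (0.911 and 0.659) followed it least without red blood cells.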

How the data were processed

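Libraries were made with the 10x Chromium 3′ v3 kit, per the labels' protocols, and the authors deposited UMI counts per gene and cell, a natural log table and an annotation of each cell. The submitters' processing notes name Cell Ranger, Seurat 2.3.4, R 3.5.2 and mm10. How doublets and empty droplets were treated before the counts were deposited is not given in the sources used here. The deposited natural log values equal ln(1 + 10000 × count / total) to within 5.0e-10 and served for that check only. Cells were mapped to libraries through the deposited annotation. Of 15750 rows, 4 with a repeated name (0.0186% of UMIs) were left out.

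Counts were summed per library and population (5 or more cells, and 3 or more for the added comparison within the nerve; 3 or more libraries). They were tested with edgeR 4.0.16 (quasi-likelihood, filterByExpr, TMM, library as a block, Benjamini-Hochberg over all genes, R 4.3.3, limma 3.58.1) and alternatively with DESeq2 1.42.0. Both sums of a comparison come from the same library, which gives the pairing; deviations of same-library sums correlated at -0.028 to 0.146. The test was tested on simulated data. Cells were thinned to 2400 UMIs for shares and spread (a fixed random seed). Summaries and plots were made in python 3.11.15 with matplotlib 3.10.9, scipy 1.17.1, pandas 2.3.3 and numpy 2.4.6.

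The members, the companion lists and the comparisons were chosen with earlier results of these data known, and 2 comparisons and the denominator outside hemoglobin genes were added after seeing the values. All 10 members are given. Of each companion list, genes qualified that were called, moved 1 way in each library and reached at least 100 CPM on the higher side, up to 6 by fold change, and some of these are named. Genes of like pattern are the 6 with the highest r among those with a mean of at least 50 CPM. Some genes that these rules select are not reported here. Alternatives were other scalings, no filter, no block, thinning, 10 or more cells per sum, no cells over 10% mitochondrial UMIs, and leaving out each library. Intervals and limits for counts cover counting error only.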

Additional observations from a re-analysis of the deposited data

Results flagged for a closer look

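Of 55 sets of 4 library values, 4 held a library far from the other 3, and chance flags about 1 in 20 such sets. In red blood cells library 2 stood above the other libraries, all at 0, for Fosb (10.05 CPM, 3 UMIs), Junb (16.76 CPM, 5 UMIs) and Zfp36 (3.351 CPM, 1 UMI). In endothelial cells 2 Jund was at 664.8 CPM in library 1 against 499 to 513 CPM in libraries 2 to 4.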

How the results depend on the processing

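Counts of members called changed with the settings. In tendon fibroblasts against endothelial cells 5 became 2 by DESeq2 and 3 after thinning to 2400 UMIs, and in tendon fibroblasts against pericytes 4 became 7 by total counts and 2 without cells over 10% mitochondrial UMIs. In tendon fibroblasts 1 against 2 the count of 2 became 0 by total counts, by DESeq2, after thinning and without the library (replicate) block, and 6 with no filter (at an unadjusted p under 0.05 the 0 counts were 4, 4, 2 and 4). In tendon fibroblasts against nerve cells the count of 1 became 3 by total counts, without the replicate block and with 10 or more cells per sum, 2 with no filter or without cells of high mitochondrial share, and 4 after thinning, which left libraries 1 to 3 only (3 without library 4 and no thinning). For bursal fibroblasts 7 became 0 of 9 after thinning, which left libraries 1 and 3 only (8 at an unadjusted p under 0.05). Leaving out each library in turn gave 2 to 4, 2 to 8 and 1 to 2 in the first 3 of these, 4 to 8 in endothelial cells 1 against 2, 1 to 3 against nerve cells, 2 to 6 against immune cells and 3 to 8 for bursal fibroblasts. Dropping the block changed no other count of members by over 1.5 times.

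Some uncalled members changed direction. By total counts Fosb, Egr1 and Atf3 were at -0.11, -0.21 and -0.37 in tendon fibroblasts against endothelial cells, Jun at -0.15 in tendon fibroblasts 1 against 2 and Nr4a1 at -0.0197 against immune cells. After thinning Nr4a1 was at 0.0064 against endothelial cells, Zfp36 at 0.11 against pericytes, Jun at 0.0103 against nerve cells, and Ier2 at 0.20 in endothelial cells against pericytes. With 10 or more cells per sum Jun was at 0.16 against nerve cells and Nr4a1 at -0.16 against immune cells. Leaving out each library gave Fosb -0.72 to 0.11 against pericytes (above 0 without library 2), Jun -0.36 to 0.47 in tendon fibroblasts 1 against 2 (below 0 without library 3), Ier2 -0.0323 to 0.13 in endothelial cells 1 against 2 (below 0 without library 2), Jun -0.70 to 0.16 against nerve cells (above 0 without library 4) and Nr4a1 -0.16 to 1.05 against immune cells (below 0 without library 3).

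Counts over all genes fell after thinning, which tests fewer genes: to 1060 and 474 for tendon fibroblasts against endothelial cells and pericytes, 665 for endothelial cells against pericytes, 235 and 287 within tendon fibroblasts and within endothelial cells, 602 against immune cells, 193 within the nerve and 95 for bursal fibroblasts. With no filter they were 3024 for endothelial cells against pericytes, 1073 for tendon fibroblasts 1 against 2, 2486 and 2856 against nerve and immune cells and 1216 for bursal fibroblasts. DESeq2 called 371 and 570 within tendon fibroblasts and endothelial cells, 149 within the nerve and 503 for bursal fibroblasts, and 2288 were called against nerve cells with 10 or more cells per sum. Leaving out a library gave 362 to 529 and 484 to 997 within tendon fibroblasts and endothelial cells, 838 to 2288 and 689 to 2860 against nerve and immune cells, 131 to 494 within the nerve and 380 to 892 for bursal fibroblasts. By total counts the calls against endothelial cells shifted from 1632 higher and 1610 lower to 1061 and 2866, against pericytes from 922 and 878 to 621 and 1466, against nerve cells from 798 and 602 to 562 and 988, and against immune cells from 853 and 663 to 677 and 1214. They shifted within tendon fibroblasts from 305 and 267 to 225 and 352, within endothelial cells from 397 and 536 to 495 and 459, within the nerve from 233 and 148 to 262 and 108 and for bursal fibroblasts from 311 and 466 to 389 and 416. The cause of these changes was not tested further.

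The median share of a cell's UMIs without Fos was 0.223% in tendon fibroblasts 2, 0.382% in tendon fibroblasts 3, 0.548% in endothelial cells 2, 0.177% in endothelial cells 3 and 1.03% in nerve cells 2. In endothelial cells 3 it was 0.2251% without cells of high mitochondrial share. Leaving out a library gave 0.456% to 0.517% in tendon fibroblasts 3, 0.09552% to 0.325% in bursal fibroblasts, 0.177% to 0.268% in endothelial cells 3 and 1.41% to 2.85% in nerve cells 3. Members in the top 5% by Fano factor numbered 3, 2 and 4 at 1500 UMIs in tendon fibroblasts 1, bursal fibroblasts and immune cells, and 10 and 6 without thinning in endothelial cells 1 and nerve cells 1. They numbered 3 to 7 in endothelial cells 3 and 1 to 3 in nerve cells 1 when a library was left out. The red blood cell sum was 1269 CPM outside hemoglobin genes.

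Depth limits the small populations: nerve cells 3 held 32 cells, 13 of them under 2400 UMIs. Nerve cells 1 had 2 Atf3 and 4 Ier2 UMIs, so the levels of these 2 genes there rest on few counts.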
